A study of Homo sapiens with 8 samples.

Results

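Collagen and laminin genes were followed across 8 RNA sequencing libraries of SET-2 cells. The set holds every gene of the deposited table whose symbol is that of a collagen α chain (COL, a type number, A and a chain number) or of a laminin α, β or γ chain (LAMA, LAMB or LAMC and a chain number). It comprises 56 of 25435 gene symbols, 44 for collagens and 12 for laminins. SET-2 is a human megakaryoblastic cell line, derived from essential thrombocythemia that had turned to leukemia, and the series title calls the disease JAK2V617F-driven, after an activating kinase mutation. The cells received a virus with a guide RNA against the splicing factor gene ZRSR2 or a non-targeting guide, 2 guides of each kind, in 2 experiments. Each of the 4 combinations of genotype and experiment therefore has 2 libraries, 1 per guide, and both genotypes share the line and the guide virus. In each genotype, experiment 1 gave replicates 1 (guide 1) and 2 (guide 2), and experiment 2 gave replicates 3 (guide 1) and 4 (guide 2). RNA was taken on day 20 in the first biological replicate and on day 25 in the second, counted from transduction, per the labels' protocol, and it is an assumption that experiment numbers are these replicate numbers. All libraries come from 1 line, and no label says that a culture was cloned, so a knockout library may hold cells with and without an edit.

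Collagens are secreted or membrane proteins whose chains wind around each other in triple helices, with glycine repeated at a fixed spacing along the helix. Fibril-forming types build the tensile matrix, the network-forming type IV builds basement membranes, and several types are small, transmembrane or carried on other fibrils. A laminin is a cross-shaped trimer of an α, a β and a γ chain that lays down the basement membrane and is bound by integrins and dystroglycan. In bone marrow, laminins and type IV collagen surround the sinusoids that megakaryocytes shed platelets into, and deposits of fibrillar collagen mark the fibrosis of myeloproliferative neoplasms.

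The laminin chains split in 2 directions between the experiments, and COL6A2, a chain of type VI collagen, had the largest rise. The promoters of 6 of these genes are printed to show the DNA before the genes that the results turn on. Each is the stretch of 250 bases before the RefSeq start of transcription, from a table on GRCh38.p14, 5′ to 3′ along the gene. COL6A2, the chain with the largest rise, comes first. LAMA5, LAMB1 and LAMC1, which rose, follow, and then LAMA2 and LAMB2, which fell. Capitals mark matches to 5 motifs, each searched on both strands. The GC box, a site of Sp1-like factors, was searched as GGGCGG. The TATA box, where the core transcription machinery is placed, was searched as TATAAA. The palindrome with the spacing of STAT sites, the factors that JAK2 activates, was searched as TTCNNNGAA. The core of GATA factor sites, used by blood progenitors, was searched as GATAA. The AP-1 site, of Fos and Jun, was searched as TGANTCA.
COL6A2: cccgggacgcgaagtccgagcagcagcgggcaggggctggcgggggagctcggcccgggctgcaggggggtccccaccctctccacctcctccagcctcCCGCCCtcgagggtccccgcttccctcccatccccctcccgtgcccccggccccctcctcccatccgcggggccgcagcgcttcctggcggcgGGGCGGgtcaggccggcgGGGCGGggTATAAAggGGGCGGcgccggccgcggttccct
LAMA5: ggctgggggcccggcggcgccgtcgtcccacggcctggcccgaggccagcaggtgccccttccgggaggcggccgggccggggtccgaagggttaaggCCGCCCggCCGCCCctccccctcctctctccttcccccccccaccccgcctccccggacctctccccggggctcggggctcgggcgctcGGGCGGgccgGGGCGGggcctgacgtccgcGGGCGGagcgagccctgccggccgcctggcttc
LAMB1: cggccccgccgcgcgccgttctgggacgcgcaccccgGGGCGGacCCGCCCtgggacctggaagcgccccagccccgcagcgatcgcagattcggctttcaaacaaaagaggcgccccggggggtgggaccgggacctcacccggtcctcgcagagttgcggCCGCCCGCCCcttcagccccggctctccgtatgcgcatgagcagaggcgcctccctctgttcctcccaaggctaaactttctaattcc
LAMC1: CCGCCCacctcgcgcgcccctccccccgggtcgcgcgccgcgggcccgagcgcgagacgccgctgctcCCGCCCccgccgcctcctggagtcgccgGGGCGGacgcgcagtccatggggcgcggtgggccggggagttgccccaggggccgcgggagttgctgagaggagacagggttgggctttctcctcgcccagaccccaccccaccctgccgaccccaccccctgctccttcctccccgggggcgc
LAMA2: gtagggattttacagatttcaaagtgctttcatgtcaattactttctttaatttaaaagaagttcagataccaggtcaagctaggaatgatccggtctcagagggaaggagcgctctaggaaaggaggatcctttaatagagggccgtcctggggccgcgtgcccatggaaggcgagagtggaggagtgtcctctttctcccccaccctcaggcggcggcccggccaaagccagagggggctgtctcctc
LAMB2: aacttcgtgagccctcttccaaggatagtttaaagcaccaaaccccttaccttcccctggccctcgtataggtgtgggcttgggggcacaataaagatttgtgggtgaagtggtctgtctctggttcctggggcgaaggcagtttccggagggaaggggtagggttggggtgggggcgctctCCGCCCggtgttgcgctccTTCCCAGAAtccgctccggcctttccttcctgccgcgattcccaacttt

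These windows are chr21:46097862-46098111 on the plus strand for COL6A2, chr20:62367313-62367562 on the minus strand for LAMA5 and chr7:108003162-108003411 on the minus strand for LAMB1. They are chr1:183023170-183023419 on the plus strand for LAMC1, chr6:128882888-128883137 on the plus strand for LAMA2 and chr3:49133051-49133300 on the minus strand for LAMB2. The COL6A2 window held a TATA box whose first base lies 32 bases before the start, and 4 GC boxes. LAMA5 held 5 GC boxes, LAMB1 4, of which a pair overlap, and LAMC1 3. The LAMA2 window held none of the 5 motifs, and LAMB2 held 1 GC box and 1 STAT-spaced palindrome. GC made up 79.6% of the bases in COL6A2, 82.8% in LAMA5, 70.4% in LAMB1, 79.6% in LAMC1, 53.2% in LAMA2 and 58.4% in LAMB2. Over 35116 windows of that length in the table, 42.6% held a GC box, 10.7% a TATA box, 6.57% a STAT-spaced palindrome, 20.4% a GATA core and 6.57% an AP-1 site. The table held windows for 41 of the 56 genes. Of the 13 chains called higher in experiment 2 that have a window, 11 held a GC box and 3 a TATA box, and of the 6 called lower, 3 and 1 did. A chain counted if any of its windows held the motif, while the shares above are per window. Median GC was 74% in chains called higher, 58.9% in those called lower, 64.6% in the 9 not called and 58% over all windows. The ranges overlapped, at 36.4% to 82.8% in chains called higher and 36.4% to 72.8% in those called lower. GC of a chain is the mean of its windows. A match is a string of letters and does not show that a factor binds.

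Library totals ran from 31106042 to 71521173 expected counts, so 1 count was worth between 0.0143 and 0.0324 CPM, counts per 1000000 counts of a library after scaling. ZRSR2 was at 18.7 to 29.4 CPM in the knockout libraries and 37.9 to 41.1 CPM in the controls, with no overlap (two-sided exact permutation test, p = 0.0286, the smallest that the 70 splits of 4 against 4 allow). Of 12 megakaryocyte markers, 10 had a mean of at least 1 CPM, led by ITGA2B at 2085 to 2708 CPM. GP1BB was at 0 in every library and PPBP was at most at 0.975 CPM. SELP had a log2 fold change between experiments of 0.79 and PF4 of −0.63, both called. Of 9 fibroblast markers, FAP and PDPN were at 0 in every library, and the summed level was 6.02 to 7.47 CPM in experiment 1 and 15.3 to 17.3 CPM in experiment 2, most of it THY1 in experiment 2. THY1 (2.21) and PDGFRB (2.04) were called higher and LUM (−2.21) lower in experiment 2. The 8 endothelial markers summed to 539 to 580 CPM and then 814 to 957 CPM, most of it TIE1 (log2 fold change 0.99), with TEK at 0, ROBO4 at −1.05 and CDH5 at −0.97. The 8 epithelial markers summed to 46.8 to 52.5 CPM and then 39.9 to 55.6 CPM, with KRT5 and KRT14 at 0, EPCAM at 1.58 and KRT18 at −1.55. The part of these markers in the results below was not tested.

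Of the 56 genes, 30 reached a mean of 1 CPM over the 8 libraries, 22 collagens and 8 laminins. COL13A1, a transmembrane collagen, had 0 counts in all 8 libraries, which allows up to 0.0428 to 0.0971 CPM in a library. Another 6 genes had at most 3 counts in any library, and 19 others had a mean under 1 CPM. In a bulk sample, fewer cells of a type and less RNA per cell cannot be told apart. Levels were compared between genes per kilobase of the transcript with the longest coding sequence in GENCODE 29. On that scale COL18A1 stood first, at 91.7 CPM per kb in experiment 1 and 172 in experiment 2. COL23A1 followed at 16.1 and 36.4, then LAMC1 at 15.6 and 19.3 and LAMA5 at 10.6 and 21.1. COL9A2 was at 9.20 and 17.4, LAMB1 at 7.26 and 16.7, COL14A1 at 6.84 and 15.4, and COL6A2 at 2.39 and 15.0. By these means LAMC1 stood above LAMA5 in experiment 1 and below it in experiment 2.

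**Figure D1:**
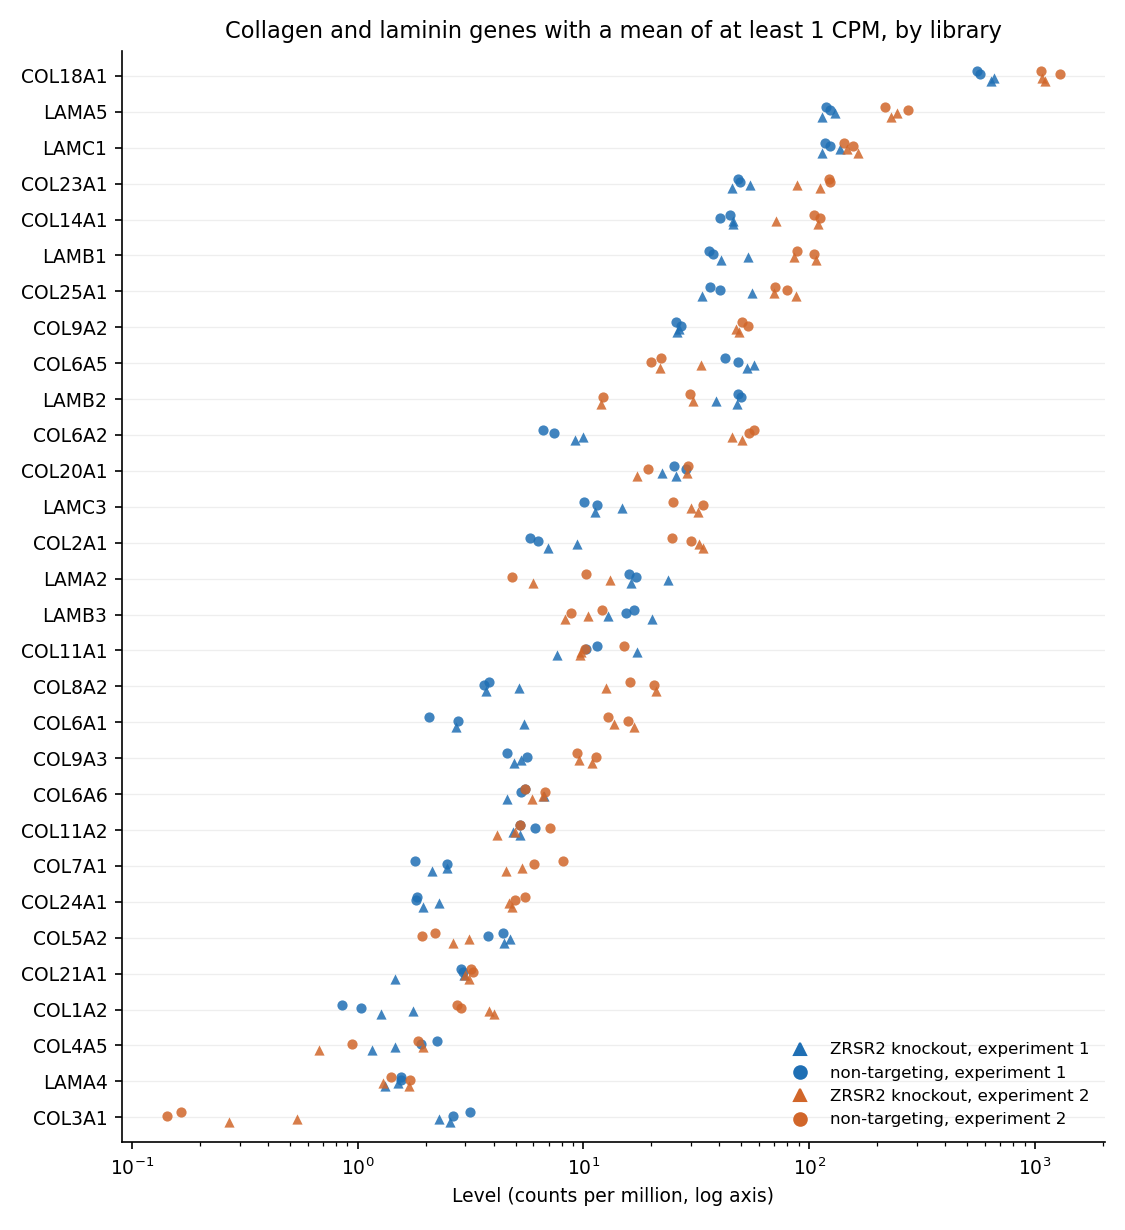
Level of the 30 genes with a mean of at least 1 CPM in each of the 8 libraries, in CPM on a log axis, 1 row per gene in order of mean level. Triangles are ZRSR2 knockout and circles non-targeting, blue is experiment 1 and orange experiment 2. In most rows the colours separate and the shapes do not, as in COL6A2 (6.59 to 9.92 against 45.5 to 57.2 CPM).

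The experiments were compared to see which chains differ between the 2 collections. Of 39 genes with enough counts to test, 19 were higher in experiment 2 and 9 lower in edgeR's test, 28 in all or 71.8%. Over all 14898 tested genes 58.2% were called, 29.6% higher and 28.6% lower, so most other tested genes differed too. Of the 39 genes, 14 were called with a rise of 2-fold or more and 7 with such a fall. Of all 14898 tested genes, 1304 (8.75%) and 811 (5.44%) were. Over the 39 genes the log2 fold change had a median of 0.31, and over everything tested 0.0035. The summed collagen level was 843 to 1007 CPM in experiment 1 and 1578 to 1878 CPM in experiment 2, and the summed laminin level 365 to 414 and then 526 to 597 CPM. Each experiment was a single collection, so experiment, day of collection and any batch cannot be told apart. The 4 libraries of an experiment are 4 guides in 1 line, and nothing says that parallel cultures were made per guide, so p-values measure the spread between these libraries, which may be technical.

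**Figure D2:**
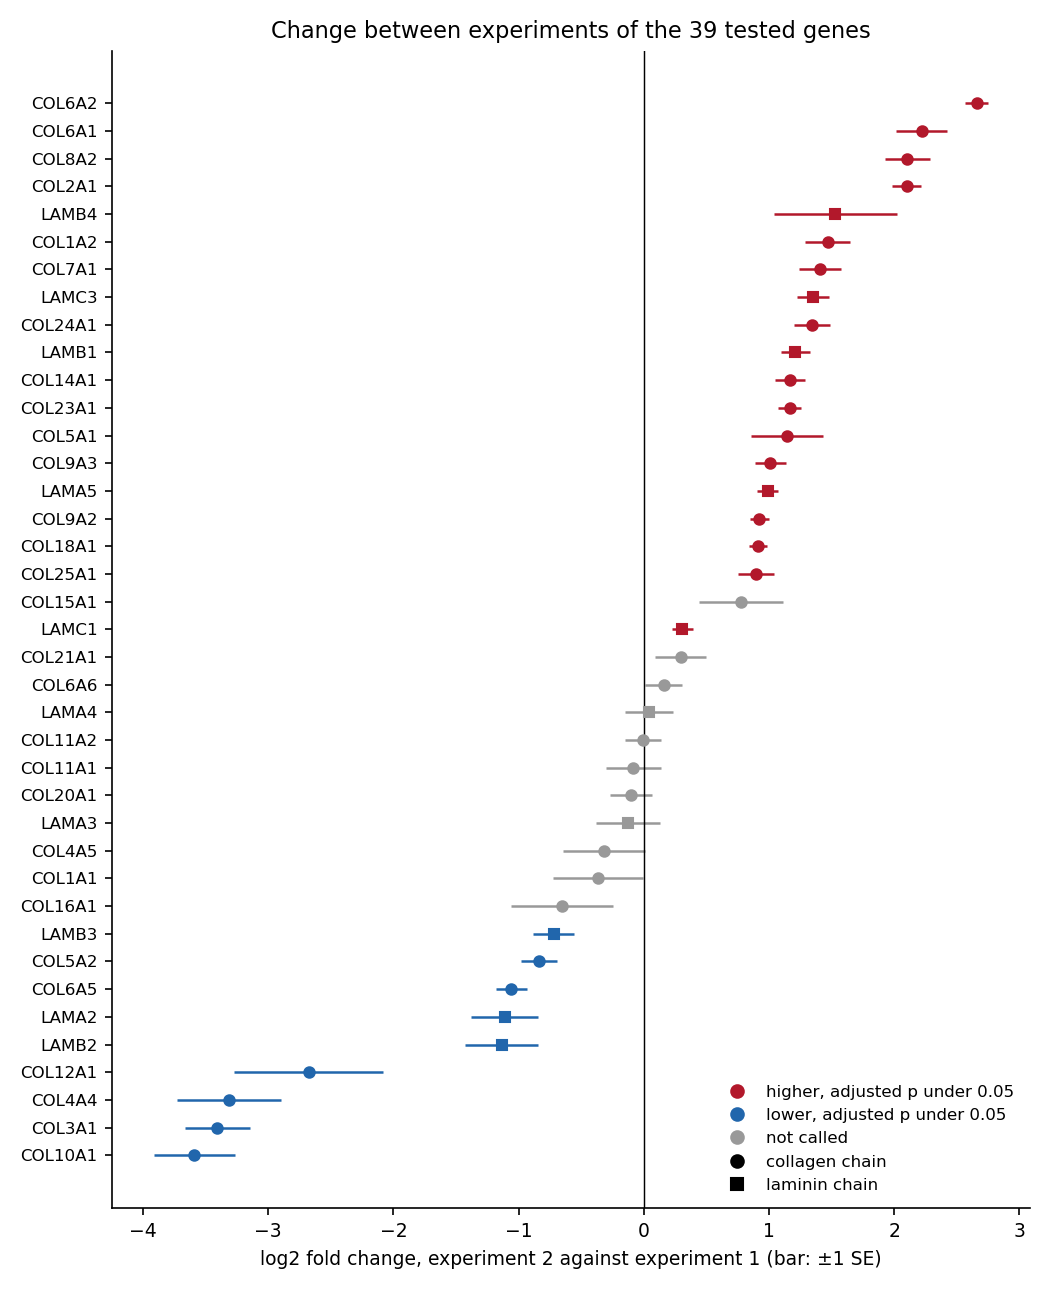
Log2 fold change of experiment 2 against experiment 1 for the 39 tested genes, with bars of 1 standard error; round points are collagens, square points laminins, red and blue are called higher and lower at an edgeR adjusted p under 0.05, grey not called. COL6A2 lies at the top with 2.66 and COL10A1 at the bottom with −3.59.

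Laminin α chains decide which receptors a laminin binds. LAMA5, the α5 chain of most adult vascular basement membranes, was at 114, 130, 124 and 118 CPM in experiment 1 (knockout replicates 1 and 2, then control replicates 1 and 2). In experiment 2 it was at 231, 244, 273 and 216 CPM (knockout replicates 3 and 4, then control replicates 3 and 4, the order used from here on). Its groups did not overlap (log2 fold change 0.99, SE 0.09, edgeR adjusted p 7.15e-06). LAMA2, the α2 chain of muscle and nerve laminins, went the other way, from 16.3, 23.6, 17.0 and 15.9 CPM to 5.95, 13.2, 4.80 and 10.3 CPM. Its groups did not overlap (log2 fold change −1.11, SE 0.27, edgeR adjusted p 0.00434), and within experiment 2 both guide 2 libraries lay above both guide 1 libraries. LAMA4, an α chain of vessel walls, was at 1.32, 1.50, 1.55 and 1.56 CPM and then 1.69, 1.29, 1.70 and 1.40 CPM, and its groups overlapped (log2 fold change 0.04, SE 0.19, edgeR adjusted p 0.871). LAMA3, of epithelial laminins, was at 0.618 to 1.10 CPM over the libraries and not called (edgeR adjusted p 0.686), and LAMA1, of early embryonic basement membranes, had at most 2 counts.

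Among the β chains, LAMB1 and LAMB2 can take the same place in a trimer. LAMB1, the widespread β1 chain, was at 40.5, 53.7, 37.5 and 35.8 CPM in experiment 1 and at 107, 85.2, 105 and 87.8 CPM in experiment 2. It rose in every pairing of libraries (log2 fold change 1.21, SE 0.11, edgeR adjusted p 9.84e-06). LAMB2, the β2 chain known from synapses and the kidney filter, fell from 48.1, 38.8, 49.7 and 48.2 CPM to 12.0, 30.6, 12.2 and 29.6 CPM. Its groups did not overlap (log2 fold change −1.14, SE 0.29, edgeR adjusted p 0.00640), and the experiment 2 values came in a low pair from guide 1 and a high pair from guide 2, 1 of each genotype. Per kilobase, the ratio of LAMB2 to LAMB1 was 0.734 to 1.37 in experiment 1 and 0.113 to 0.365 in experiment 2. LAMB3, the β3 chain of epithelial anchoring laminin, was at 20.1, 12.9, 15.4 and 16.8 CPM and then 8.29, 10.5, 8.77 and 12.1 CPM (log2 fold change −0.72, SE 0.16, edgeR adjusted p 0.00276). The 2 ranges did not meet, though the lowest library of experiment 1 and the highest of experiment 2 were close. LAMB4 was scarce, at 0.0842 to 0.487 CPM and then 0.299 to 0.856 CPM, and its groups overlapped. It was called at a log2 change of 1.53 (SE 0.49, edgeR adjusted p 0.0202). That call was lost without control replicate 2 (adjusted p 0.0656), knockout replicate 3 (0.0610) or control replicate 4 (0.0743), and without knockout replicate 2 the change was 2.44.

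LAMC1, the γ1 chain that most laminins share, was at 114, 137, 124 and 117 CPM in experiment 1 and 165, 147, 156 and 142 CPM in experiment 2. The groups did not overlap, and its log2 change of 0.31 (SE 0.08, edgeR adjusted p 0.00755) was the smallest among the 28 called genes. LAMC3, a γ chain of skin, nerve and retina, rose from 11.3, 14.9, 11.5 and 10.1 CPM to 32.2, 29.9, 34.0 and 24.9 CPM (log2 fold change 1.35, SE 0.13, edgeR adjusted p 1.14e-05). LAMA5, LAMB1 and LAMC1 together made up 73.3% to 77.5% of all laminin CPM in experiment 1 and 84.6% to 89.5% in experiment 2. This share is of CPM and not per length.

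**Figure D3:**
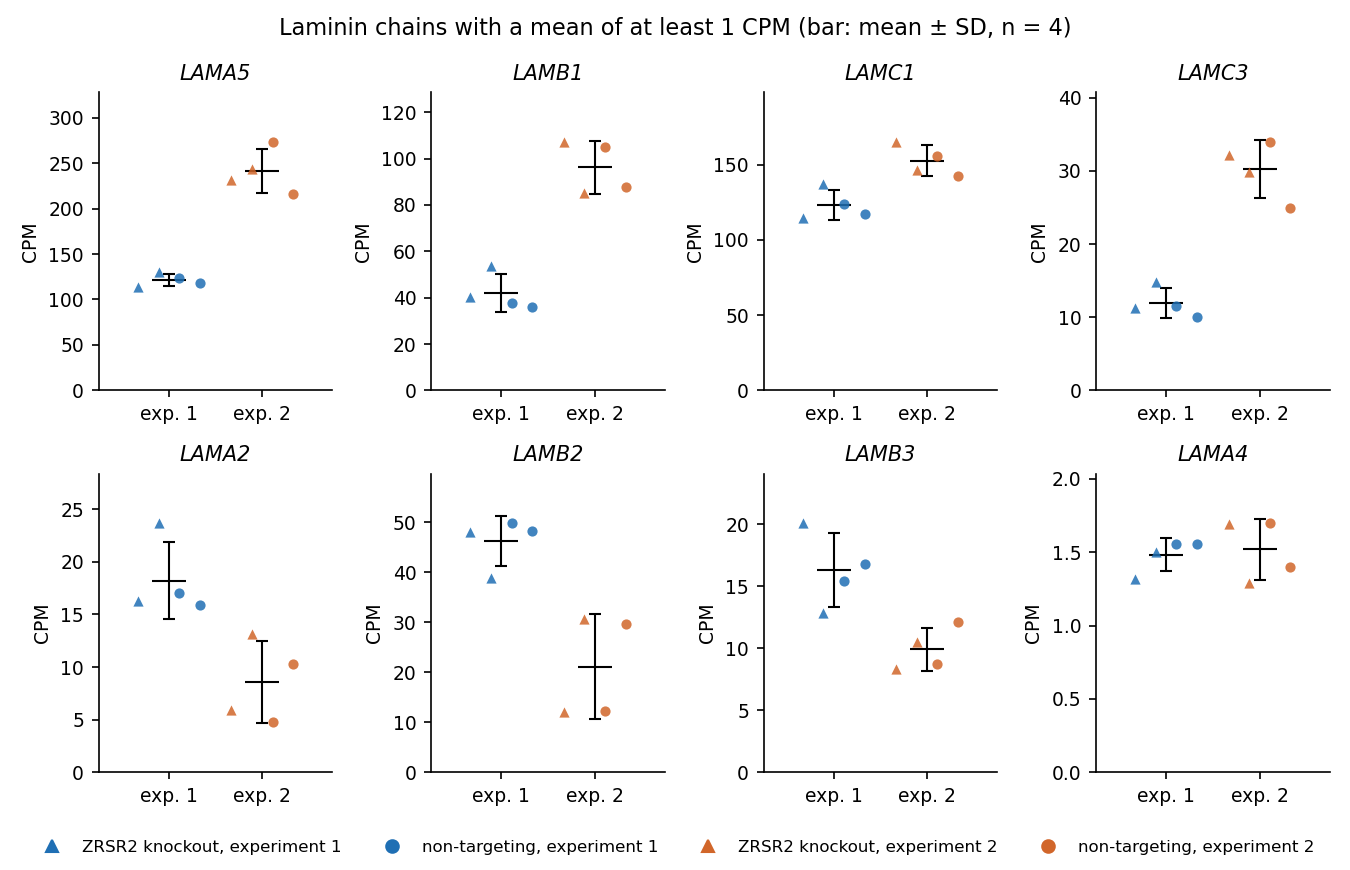
CPM of the 8 laminin chains with a mean of at least 1 CPM, 1 panel per gene with its own axis from 0; triangles are ZRSR2 knockout, circles non-targeting, and black bars the mean ± SD of the 4 libraries of an experiment. LAMA5, LAMB1, LAMC1 and LAMC3 lie higher in experiment 2, LAMA2, LAMB2 and LAMB3 lower, and LAMA4 overlaps.

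Collagens of basement membranes and vessel walls were dominated by 1 gene. COL18A1 encodes type XVIII collagen, a basement membrane heparan sulfate proteoglycan whose end is cleaved off as endostatin. It was at 640, 656, 568 and 553 CPM in experiment 1 and 1107, 1078, 1291 and 1059 CPM in experiment 2. Its mean went from 604 ± 50.8 to 1134 ± 107 CPM (SD, n = 4), and the log2 fold change was 0.91 (SE 0.07, edgeR adjusted p 3.76e-06). It made up 65.1% to 68.3% of all collagen CPM in experiment 1 and 64.9% to 68.7% in experiment 2, and without it the collagen sum still went from 289 to 351 CPM to 499.7 to 587 CPM. The related COL15A1 was near its floor, at 0.212 to 0.227 CPM and then 0.299 to 0.586 CPM, and was not called (edgeR adjusted p 0.0676), though the experiments did not overlap.

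Type IV collagen, the network of basement membranes, was nearly absent. COL4A1 and COL4A2, its most widespread pair, had 0 to 3 and 6 to 18 counts in a library, COL4A3 0 or 1 and COL4A6 0 to 17. COL4A5 was at 1.15, 1.46, 1.91 and 2.26 CPM and then 0.676, 1.95, 0.941 and 1.84 CPM, with overlapping groups (log2 fold change −0.32, SE 0.33, edgeR adjusted p 0.424). Without knockout replicate 4 it was called lower, at −0.79 with an edgeR adjusted p of 0.0462. COL4A4 had 19 to 47 counts in a library of experiment 1 and 2 to 10 in experiment 2. In CPM this was 0.579 to 1.00 against 0.0428 to 0.234, with a log2 change of −3.31 (SE 0.41, edgeR adjusted p 6.55e-05). COL8A2, a short-chain collagen of vessel walls and the cornea, rose from 3.71, 5.19, 3.62 and 3.81 CPM to 21.0, 12.6, 20.5 and 16.1 CPM (log2 fold change 2.10, SE 0.18, edgeR adjusted p 6.15e-06). Its partner chain COL8A1 had at most 1 count in a library. COL7A1, the anchoring fibril under epithelia, went from 2.13, 2.48, 2.49 and 1.80 CPM to 4.55, 5.34, 6.06 and 8.08 CPM (log2 fold change 1.40, SE 0.17, edgeR adjusted p 4.74e-05). For both, each library of experiment 2 lay above each of experiment 1.

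Type VI collagen forms beaded filaments from an α1, an α2 and a further chain, α3 or one of the related α5 and α6. COL6A1 rose from 2.72, 5.42, 2.78 and 2.07 CPM to 16.8, 13.6, 15.7 and 12.9 CPM, with a log2 change of 2.22 (SE 0.20, edgeR adjusted p 8.67e-06). COL6A2 rose from 9.15, 9.92, 7.41 and 6.59 CPM to 50.2, 45.5, 54.4 and 57.2 CPM. Its log2 change of 2.66 (SE 0.09, edgeR adjusted p 6.94e-08) was the largest rise in the set, and its mean was 6.27 times as high in experiment 2. The 2 genes neighbour each other on chromosome 21. COL6A3, whose chain usually completes the trimer, had 0 to 4 counts in experiment 1 and 0 in all 4 libraries of experiment 2. COL6A5 was present and fell, from 53.2, 56.9, 48.3 and 42.2 CPM to 21.8, 33.1, 19.9 and 22.0 CPM (log2 fold change −1.06, SE 0.12, edgeR adjusted p 4.18e-05). COL6A6, its neighbour on chromosome 3, was at 4.60, 6.70, 5.31 and 5.49 CPM and then 5.90, 6.58, 6.73 and 5.50 CPM (log2 fold change 0.16, SE 0.15, edgeR adjusted p 0.367). The type VI chains thus comprised 2 that rose, 1 that fell, 1 that was not called and 1 near the floor.

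The genes whose pattern was most like COL6A2 were sought among 11013 others with a mean of at least 5 CPM, by Pearson correlation of log2 CPM over the 8 libraries. They were HIP1 (r = 0.998), PIK3IP1 (0.997), GJA4 (0.997), GAD1 (0.996) and TMEM159 (0.996). The libraries form 2 clusters by experiment, so such values chiefly restate that each gene was higher in experiment 2.

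Fibril-forming collagens were low, and their chains went different ways. COL2A1, the cartilage fibril chain, was the most abundant of them in experiment 2 per kilobase, at 5.97 CPM per kb. It rose from 6.96, 9.32, 6.31 and 5.82 CPM to 33.9, 32.6, 30.02 and 24.7 CPM, with a log2 change of 2.10 (SE 0.12, edgeR adjusted p 6.97e-07). COL11A1 and COL11A2, whose chains combine with that of COL2A1 in type XI fibrils, were not called. COL11A1 was at 7.67, 17.3, 10.3 and 11.5 CPM and then 9.62, 9.80, 10.1 and 15.2 CPM, and COL11A2 at 5.22, 4.87, 6.08 and 5.24 CPM and then 4.15, 4.99, 7.14 and 5.22 CPM. The log2 fold change was −0.08 (SE 0.22) for the former and −0.0036 (SE 0.14) for the latter. COL1A2, the α2 chain of the type I fibril of bone and scar, rose from 1.26, 1.76, 1.04 and 0.854 CPM to 4.03, 3.80, 2.88 and 2.75 CPM (log2 fold change 1.47, SE 0.18, edgeR adjusted p 5.08e-05). COL1A1, its usual partner in excess, had 5 to 20 counts in a library and was not called (log2 fold change −0.36, SE 0.36, edgeR adjusted p 0.404). Per kilobase, COL1A1 was at 0.043 CPM over all libraries, against 0.424 for COL1A2.

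COL3A1, the fibril chain of soft tissue and marrow reticulin, fell from 2.56, 2.29, 2.65 and 3.14 CPM to 0.270, 0.539, 0.143 and 0.165 CPM. The log2 change was −3.41 (SE 0.26, edgeR adjusted p 2.93e-06), on 82 to 108 counts in a library of experiment 1 and 6 to 23 in experiment 2. COL5A2, which regulates fibril width, was at 4.46, 4.70, 3.79 and 4.39 CPM and then 2.64, 3.12, 1.92 and 2.20 CPM (log2 fold change −0.83, SE 0.15, edgeR adjusted p 5.94e-04). Its partner COL5A1 stayed under 1 CPM, at 0.162 to 0.449 CPM and then 0.541 to 0.941 CPM, and was called higher (log2 fold change 1.15, SE 0.29, edgeR adjusted p 0.00534). COL24A1, a fibril collagen of developing bone, rose from 1.94, 2.29, 1.81 and 1.83 CPM to 4.85, 4.69, 4.96 and 5.52 CPM (log2 fold change 1.34, SE 0.14, edgeR adjusted p 2.16e-05). COL10A1, a short-chain collagen of growing cartilage and not a fibril former, was at 1.16 to 2.08 CPM in experiment 1 and 0.0855 to 0.192 CPM in experiment 2. Its log2 change of −3.59 (SE 0.32, edgeR adjusted p 7.96e-06) was the largest fall in the set, on 6 to 8 counts in a library of experiment 2. Of the fibril-forming chains, COL27A1 had 3 to 24 counts and COL5A3 0 to 18.

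Collagens carried on fibrils also split. COL9A2 and COL9A3 encode chains of type IX, which decorates cartilage fibrils. COL9A2 rose from 26.0, 26.6, 27.0 and 25.7 CPM to 48.7, 47.5, 53.4 and 50.1 CPM (log2 fold change 0.92, SE 0.07, edgeR adjusted p 4.43e-06). COL9A3 rose from 4.94, 5.30, 5.60 and 4.57 CPM to 10.9, 9.51, 11.4 and 9.40 CPM (log2 fold change 1.01, SE 0.13, edgeR adjusted p 6.04e-05). Their trimer partner COL9A1 had 1 to 20 counts. COL14A1, a fibril-surface collagen, went from 46.0, 46.1, 40.1 and 44.6 CPM to 109.6, 71.1, 112 and 105 CPM (log2 fold change 1.17, SE 0.12, edgeR adjusted p 1.85e-05), with knockout replicate 4 low among the experiment 2 libraries. COL12A1, its relative in tendon and scar, fell within the low range, from 0.533 to 1.38 CPM to 0.0143 to 0.352 CPM (log2 fold change −2.68, SE 0.59, edgeR adjusted p 0.00272). Its log2 fold change was −2.04 without control replicate 3 and −3.90 without control replicate 4, the ends of the range over single libraries left out, and it also moved by over 1.5 times without knockout replicate 4. It was called each time. COL20A1 was at 25.6, 22.3, 28.3 and 25.2 CPM and then 17.3, 28.7, 19.4 and 29.2 CPM, and was not called (log2 fold change −0.10, SE 0.17, edgeR adjusted p 0.619). COL21A1 was at 1.46, 2.97, 2.91 and 2.87 CPM and then 3.11, 2.98, 3.24 and 3.19 CPM (log2 fold change 0.30, SE 0.20, edgeR adjusted p 0.231). Without knockout replicate 2 it was called, at 0.61 with an edgeR adjusted p of 0.0153.

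Transmembrane collagens, which span the cell membrane and can be shed, included 2 abundant genes. COL23A1 rose from 45.7, 54.4, 49.1 and 48.3 CPM to 111, 88.0, 124 and 122 CPM (log2 fold change 1.17, SE 0.09, edgeR adjusted p 3.72e-06). COL25A1, known from amyloid plaques and from the innervation of muscle, rose from 33.4, 55.6, 40.1 and 36.4 CPM to 87.8, 69.5, 79.5 and 70.8 CPM (log2 fold change 0.90, SE 0.14, edgeR adjusted p 3.43e-04). In both the groups did not overlap. COL17A1, the transmembrane collagen of skin, had at most 2 counts. Across the set, the experiments did not overlap in 29 of the 39 tested genes, against 56% of all tested genes.

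Other genes that make, cut or bind these proteins were read from lists drawn up for the pathway. Of 33 genes for collagen modification, folding, export and crosslinking, 27 were tested, of which 18 were higher in experiment 2, 1 lower and 8 not called, with a median log2 fold change of 0.45. Over all tested genes 29.6% were called higher and 28.6% lower. P4HA1, a catalytic subunit of the prolyl hydroxylase that stabilises the helix, was at 47.5, 37.6, 77.3 and 60.1 CPM and then 174, 166, 171 and 418 CPM (log2 fold change 2.05, SE 0.23). LOX, an extracellular oxidase that crosslinks collagen, was at 0.281, 0.318, 0.744 and 0.183 CPM and then 6.78, 6.68, 6.86 and 23.3 CPM (log2 fold change 4.74, SE 0.45). LOXL2, of that family, was at 1.91, 1.86, 3.79 and 2.04 CPM and then 15.6, 19.5, 21.2 and 74.0 CPM (log2 fold change 3.62, SE 0.36). For these 3 genes control replicate 4 was far above the other libraries of experiment 2, which themselves lay above all of experiment 1. BMP1, the procollagen C-proteinase, was the gene called lower (log2 fold change −0.44).

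Of 12 basement membrane partners, 10 were tested, of which 8 were higher, 1 lower and 1 not called, with a median of 0.62, against the same 29.6% and 28.6% of all tested genes. AGRN, the proteoglycan agrin that binds laminin, was at 88.9, 91.6, 89.5 and 83.8 CPM and then 252, 222, 308 and 214 CPM (log2 fold change 1.49, SE 0.11). NTN4, a netrin that binds laminin γ chains, was at 1.18, 1.50, 1.88 and 1.34 CPM and then 9.42, 8.74, 11.02 and 24.3 CPM (log2 fold change 3.10, SE 0.25). FBLN1, the matrix protein fibulin, was at 7.10, 10.3, 7.35 and 6.68 CPM and then 36.5, 32.5, 44.2 and 29.4 CPM (log2 fold change 2.19, SE 0.15). All 3 lay higher in every library of experiment 2, and TINAGL1 was the gene called lower (log2 fold change −0.92).

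Of 16 receptors of collagens and laminins, all were tested, of which 8 were higher, 3 lower and 5 not called, with a median of 0.22, where 58.2% of all tested genes were called in either direction. GP6, the platelet collagen receptor glycoprotein VI, was at 68.9, 70.8, 63.5 and 67.9 CPM and then 16.5, 23.0, 15.8 and 19.0 CPM (log2 fold change −1.87, SE 0.11). ITGA11, the α subunit of a fibrillar collagen integrin, was at 2.53, 3.22, 3.27 and 2.62 CPM and then 16.5, 9.56, 21.3 and 21.9 CPM (log2 fold change 2.52, SE 0.18). ITGB4, the β subunit of a laminin integrin, was at 33.0, 30.1, 36.4 and 35.6 CPM and then 72.7, 72.6, 91.1 and 89.8 CPM (log2 fold change 1.27, SE 0.07). In all 3 the experiments did not overlap. ITGA10 and CD44 were the other receptors called lower (log2 fold changes −1.18 and −0.40). In the knockout comparison edgeR called 0 genes of each of these lists.

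**Figure D4:**
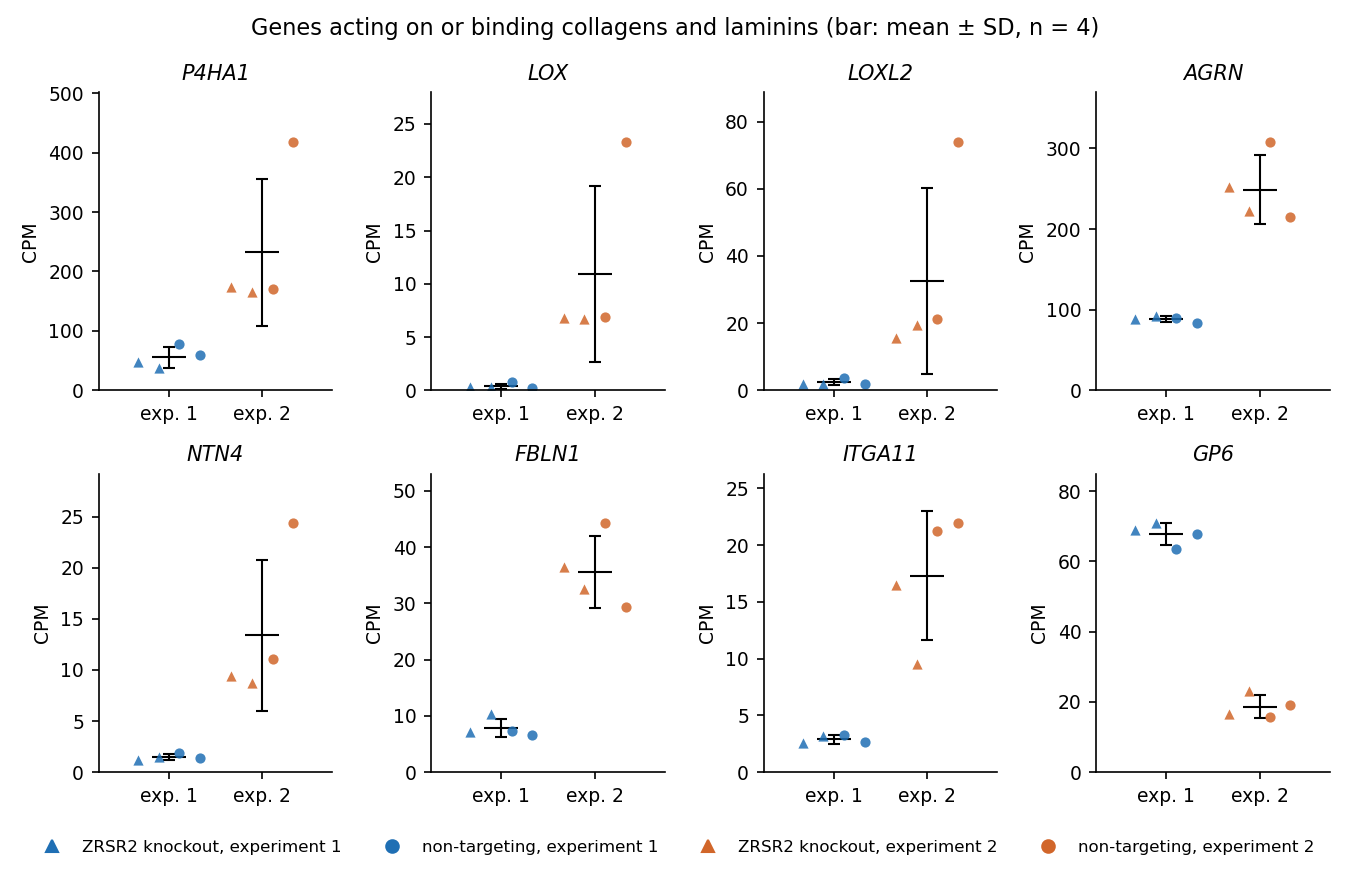
CPM of 8 genes that modify, crosslink, accompany or bind collagens and laminins, 1 panel per gene with its own axis from 0; symbols and bars as for the laminin chains. GP6 is lower in experiment 2 (15.8 to 23.0 against 63.5 to 70.8 CPM) and the other 7 are higher, with control replicate 4 standing above the rest in P4HA1, LOX, LOXL2 and NTN4.

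ZRSR2 knockout was compared with non-targeting, the comparison the study was built on. None of the 39 chains was called in edgeR's fit with genotype alone, where 0% of all tested genes were called, and 0 of them had an unadjusted p under 0.05. Blocking on experiment left the count at 0, where 0 of all 14898 tested genes were called. ZRSR2 itself was called in neither of these edgeR fits (edgeR adjusted p 0.275 with the block). With the block, 5 chains had an unadjusted p under 0.05 (690 of all 14898 genes). DESeq2 with the block called 0 of the 39 against 0.208% of all tested genes. Within experiment 1 and within experiment 2 edgeR called 0 chains each, where 0% of all tested genes were called. The unadjusted p was under 0.05 for 5 chains in each, and for 305 and 645 of all 14898 genes. The 2 genotypes overlapped in all 39 chains, against non-overlap in 0.678% of all tested genes. Fold changes in the fit with genotype alone carried standard errors of 0.14 to 1.11 on the log2 scale, since the difference between experiments sits in the spread, so a change within that error was not detectable there.

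The chains with the smallest unadjusted p under the block were these 5. COL1A2 had a log2 change of 0.56 (SE 0.17, edgeR adjusted p 0.774) with the block and 0.52 without, and within each experiment both knockout libraries lay above both controls. COL2A1 had 0.35 (SE 0.11, edgeR adjusted p 0.862) with the block and 0.30 without, again with both knockout libraries higher in each experiment. COL6A5 had 0.34 (SE 0.12, edgeR adjusted p 0.913) and 0.32, COL5A2 0.32 (SE 0.15) and 0.28, and COL11A2 −0.31 (SE 0.14) and −0.30. Both knockout libraries also lay above both controls in each experiment for COL5A2, and below them for COL11A2. The 5 chains were picked by their p in these same libraries, so this order is not separate support. Its share over all tested genes was not counted. None of the 5 chains passed the threshold.

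For the laminins, log2 fold changes of knockout against non-targeting with genotype alone were −0.03 for LAMA5, 0.30 for LAMA2, −0.10 for LAMA4, 0.11 for LAMB1, −0.11 for LAMB2, −0.04 for LAMB3, 0.06 for LAMC1 and 0.13 for LAMC3. For basement membrane and type VI collagens they were 0.0035 for COL18A1, −0.40 for COL4A5, −0.06 for COL8A2, −0.35 for COL7A1, 0.20 for COL6A1, −0.13 for COL6A2 and 0.05 for COL6A6. For fibril collagens they were −0.09 for COL11A1, −0.09 for COL3A1 and −0.04 for COL24A1. For the remaining chains they were −0.07 for COL9A2, −0.02 for COL9A3, −0.15 for COL14A1, −0.12 for COL20A1, −0.21 for COL21A1, −0.20 for COL23A1 and 0.12 for COL25A1. Called chains with a mean under 1 CPM had 0.37 for COL10A1, 0.44 for COL4A4, 0.38 for COL12A1, −0.19 for COL5A1 and 0.69 for LAMB4. All of these had an edgeR adjusted p of 1 when rounded.

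Whether the change between experiments differed with genotype was tested as an interaction. None of the 39 chains was called, nor was any other gene (0% of all tested genes), and 3 chains had an unadjusted p under 0.05 in edgeR (248 of all genes). These were COL6A2, with log2 fold changes between experiments of 2.32 in knockout and 2.99 in non-targeting libraries, COL3A1, with −2.58 and −4.24, and COL5A1, with 0.41 and 1.89. Of the 39 chains, 36 had the same sign of change between experiments in both genotypes.

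**Figure D5:**
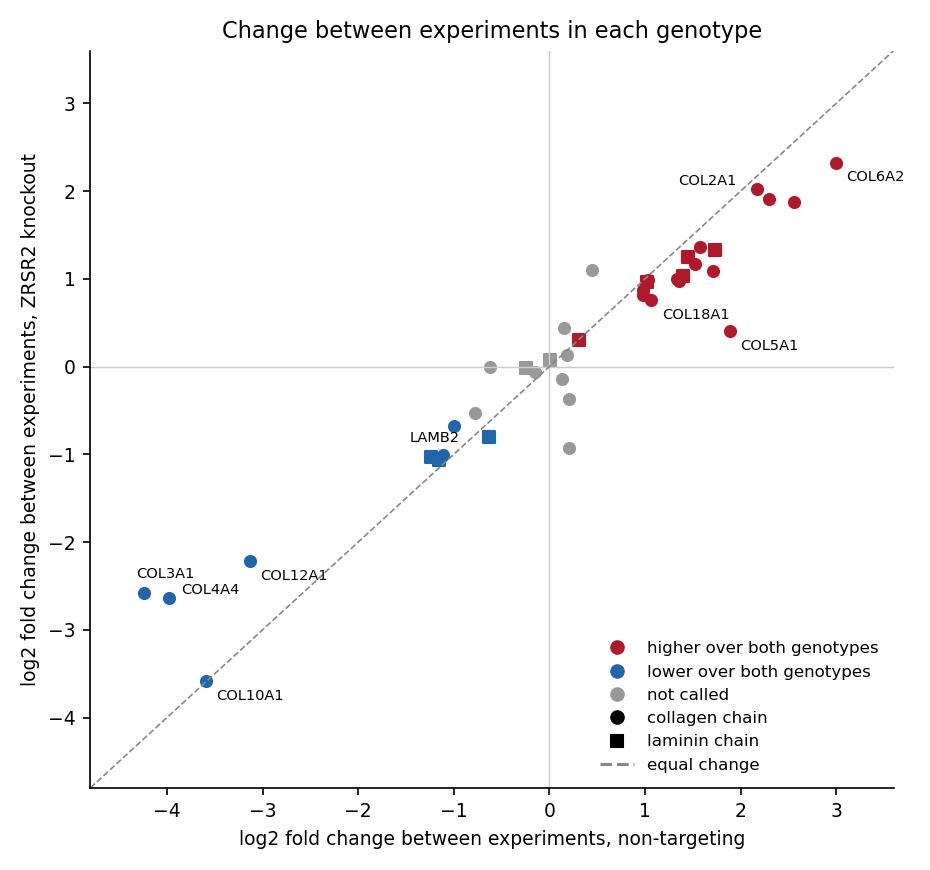
Log2 fold change of experiment 2 against experiment 1 in non-targeting libraries (horizontal) and in ZRSR2 knockout libraries (vertical) for the 39 tested chains; colours and shapes as for the plot of change between experiments, and the dashed line marks equal change. Called chains lie in the same quadrant for both genotypes, with COL6A2 at 2.99 and 2.32.

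Guides of the same genotype were also set against each other. For ZRSR2 guide 2 against guide 1, edgeR called 0 chains (0% of all tested genes), and the unadjusted p was under 0.05 for 0 of them, or for 5 when blocked on experiment (376 of all 14898 genes). LAMA2 was one of these 5, with a log2 change of 0.83 (SE 0.23, edgeR adjusted p 1 when rounded) under the block. For the non-targeting guides edgeR called 0 (0% of all tested genes), and the unadjusted p was under 0.05 for 0 chains, blocked or not.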

How the data were processed

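Messenger RNA of 8 SET-2 libraries was measured by sequencing. The authors deposited 1 table of expected counts by gene symbol, made with RSEM as the table's name says; the submitters' processing notes list cutadapt 1.11, RSEM 1.2.30 and the build hg19, with no role or order. Aligner, annotation and use of strand are not given in the sources used here. The expected counts were whole numbers, and rounding changed 0 of them. Many of the chains overlap genes or antisense RNAs of the opposite strand in GENCODE 29, among them COL18A1, LAMA5, LAMB1, LAMC1, COL23A1, LAMA2, COL3A1, COL10A1, COL9A3 and the pair COL4A1 and COL4A2, so their counts are uncertain. Transcript lengths and promoters come from GRCh38 annotation, not from hg19.

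A filter on low counts (edgeR's filterByExpr, by genotype) left 14898 of 25435, and scaled by TMM. CPM uses the scaled totals. Tests were edgeR quasi-likelihood F tests adjusted by Benjamini-Hochberg across everything tested, with 0.05 as threshold. The experiment and knockout fits were tried on simulated data. In the simulation of the knockout no gene differed between experiments, so it does not show how that fit performs on these libraries. Standard errors were derived from the F statistic. The experiment comparison, the effects within experiments and the interaction came from 1 fit with 4 combinations of genotype and experiment, the knockout comparison from genotype alone, and the guides from 1 fit with 4 guides. The experiment number in the titles is shared by both genotypes. Deviations from genotype means correlated at 0.678 to 0.846 between knockout and control libraries of the same experiment (8 pairs), and at −0.816 to −0.709 in the other 8, so the experiment was taken as pairing the samples. Libraries differed by at least 3.06 in chi-square per degree of freedom and were counted as 8. Alternatives were another scaling, 2 count filters, DESeq2, blocks and leaving out each library.

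Chains with a mean of at least 1 CPM are named with every library's value, scarcer ones where called. From each list up to 3 genes of largest change are named; some values are not reported here. The likeness search took a prior count of 2 and means from 5 CPM. The set, the lists and the rules were chosen with earlier results of these data known. The printed promoters and motifs were chosen after the values were seen. Software was R 4.3.3, edgeR 4.0.16, DESeq2 1.42.0, Python 3.11.15 and matplotlib 3.10.9.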

Additional observations from a re-analysis of the deposited data

Results flagged for a closer look

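In groups of 4 libraries, the sample farthest out was compared with the other 3, and 11 of 156 groups had 1 library apart. Of these, 8 were groups of an experiment. A chance figure of about 8 is over all 156 groups, not over the groups of an experiment alone, and assumes libraries of 1 kind. A genotype group mixes the 2 experiments, so the figure does not hold there. No chance figure was made for the groups of an experiment alone, so their count is not set against 1. In experiment 2, COL11A1 was at 15.2 CPM in control replicate 4 and at 9.62 to 10.1 CPM in the others. Knockout replicate 4 stood apart in experiment 2 for COL14A1 (71.1 CPM, others 105 to 112 CPM), for COL4A4 (0.234 CPM, others 0.0428 to 0.0676 CPM) and for COL6A5 (33.1 CPM, others 19.9 to 22.0 CPM). Knockout replicate 2 stood apart in experiment 1 for COL8A2 (5.19 CPM, others 3.62 to 3.81 CPM), for LAMA2 (23.6 CPM, others 15.9 to 17.0 CPM) and for LAMB2 (38.8 CPM, others 48.1 to 49.7 CPM). COL21A1 was at 1.46 CPM in knockout replicate 1, against 2.87 to 2.97 CPM in the rest of experiment 1 and 2.97 to 3.11 CPM in the rest of the knockout libraries. Among non-targeting libraries, replicate 3 stood apart for COL6A6 (6.73 CPM, others 5.31 to 5.50 CPM) and for its total of 71521173 expected counts (others 31106042 to 36544665).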

How the results depend on the processing

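For 78 results, 1032 values were computed under alternatives, of which 928 had the direction and call of the reported value, or for counts a similar size. Between experiments, 22 to 30 chains were called against 28 (22 of 30 tested with at least 10 counts in every library, 30 of 55 without a filter), 27 to 29 without a library, and 28 with the guide as replicate block. Of the 28 calls, 27 held in each alternative that tested the gene, and LAMB4 did not. Over the deviations from experiment means, the same guide in both experiments correlated at −0.0275 to 0.0576, and different guides at −0.135 to 0.158. The knockout, interaction and guide comparisons called 0 chains in each alternative run, with the experiment as replicate block too, which changed no call. ZRSR2 had a log2 fold change of −0.67 with an edgeR adjusted p of 1 when rounded, and with the block in DESeq2 −0.67 with an adjusted p of 5.38e-04.

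COL21A1 and COL4A5 were called between experiments without knockout replicate 2 and replicate 4, at log2 fold changes of 0.61 and −0.79. Log2 fold changes between experiments turned sign when a library was left out in 4 uncalled chains, with ranges of COL11A1 −0.31 to 0.27, COL11A2 −0.13 to 0.091, COL20A1 −0.31 to 0.062 and LAMA4 −0.061 to 0.13. COL11A2 also did so without a filter (8.3e-04), with at least 10 counts in every library (0.0057) and with experiment alone (0.016). Of the uncalled knockout fold changes, 4 turned sign with the block in edgeR and in DESeq2, COL24A1 (0.017 and 0.012), COL3A1 (0.21 and 0.33), COL6A2 (0.072 and 0.080) and COL8A2 (0.041 and 0.049). Ranges without 1 library, for those that turned sign, were COL10A1 −0.17 to 1.21, COL11A1 −0.38 to 0.072, COL12A1 −0.51 to 1.04, COL14A1 −0.47 to 0.11, COL18A1 −0.16 to 0.26, COL20A1 −0.23 to 0.0025, COL23A1 −0.45 to 0.035, COL24A1 −0.26 to 0.27, COL25A1 −0.10 to 0.33, COL2A1 −0.040 to 0.75, COL3A1 −0.53 to 0.56, COL4A4 −0.031 to 1.38, COL5A1 −0.48 to 0.21 and COL6A1 −0.21 to 0.70. They were COL6A2 −0.55 to 0.34, COL6A6 −0.014 to 0.15, COL7A1 −0.62 to 0.078, COL8A2 −0.62 to 0.43, COL9A2 −0.23 to 0.12, COL9A3 −0.23 to 0.23, LAMA2 −0.019 to 0.57, LAMA5 −0.21 to 0.23, LAMB1 −0.15 to 0.42, LAMB2 −0.39 to 0.17, LAMB3 −0.33 to 0.13, LAMC1 −0.020 to 0.15 and LAMC3 −0.11 to 0.51 for the rest. The cause was not tested. Depth limits the chains near the floor of 3 counts, 0.0428 to 0.0971 CPM, and such floors cover counting error only.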

Other observations

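The values below were chosen after they were seen. In experiment 2 the guide 1 libraries of both genotypes lay together and apart from the guide 2 libraries for several chains. LAMB2 was at 12.0 and 12.2 CPM with guide 1 (knockout, control) and 30.6 and 29.6 CPM with guide 2. LAMA2 was at 5.95 and 4.80 CPM and then 13.2 and 10.3 CPM, COL20A1 at 17.3 and 19.4 CPM and then 28.7 and 29.2 CPM, and COL4A5 at 0.676 and 0.941 CPM and then 1.95 and 1.84 CPM. In experiment 1 LAMB2 was at 48.1 and 49.7 CPM with guide 1 and 38.8 and 48.2 CPM with guide 2. No test was made of this split, and its share over all tested genes was not counted. Guide 1 of ZRSR2 and guide 1 of the non-targeting kind are different guides that share a number.

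Partner chains of some known trimers were unequal in these counts. Others lay closer, as LAMA5, LAMB1 and LAMC1 at 21.1, 16.7 and 19.3 CPM per kb in experiment 2. In experiment 1 these 3 were further apart, at 10.6, 7.26 and 15.6 CPM per kb. The unequal ones were these. COL6A1 and COL6A2 were present with COL6A3 at 0 to 4 counts, COL9A2 and COL9A3 with COL9A1 at 1 to 20, and COL8A2 with COL8A1 at 0 or 1. COL6A5 and COL6A6, whose chains can stand in for that of COL6A3, were present, at 19.9 to 56.9 CPM and 4.60 to 6.73 CPM over the libraries.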
